A study of Mus musculus with 6 samples.

Results

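The 34 genes described here are the macrophage and myeloid genes of the embryonic mouse pancreas. They were chosen by name, as rows of the gene tables whose symbol stood in a list of 34, out of 54735 symbols in each table. All 34 were found. The samples were whole pancreata dissected at e16.5, with 3 samples labelled Neurog3:cre, called control here, and 3 labelled Neurog3:cre;RARdnfl/fl, called RARdn here. All 6 came from mice of a mixed C57Bl6/129SV strain background, and all carried the Neurog3:cre driver. The labels leave RARdn unexplained; the name usually stands for a retinoic acid receptor with dominant-negative action. Neurog3 is the transcription factor gene of endocrine progenitors, so the driver is not a driver of myeloid cells, and the labels do not say how many embryos made up a sample. By its title the series is about retinoic acid signals in endocrine progenitors and the specification of islet cells, and the myeloid genes are transcripts of other cells in the same dissection.

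Macrophages enter embryonic organs early, from yolk sac and fetal liver precursors, and then persist and divide inside the tissue. Their survival depends on the receptor tyrosine kinase encoded by Csf1r, which binds the cytokines encoded by Csf1 and Il34, and their gene programme depends on the transcription factor PU.1, encoded by Spi1. In the developing pancreas they lie around the epithelium, clear dying cells and are known to influence endocrine cell growth. They are also a textbook source of the 3 chains of complement C1q.

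The tables held between 35256531 and 52015498 counts in genes per library, so tested myeloid genes rested on at least 142 counts over the 6 libraries. The groups did not overlap in the number of genes with a count, 27828 to 28517 in controls and 23995 to 27147 in RARdn libraries, nor in several technical shares. In controls and RARdn libraries, ribosomal RNA genes had 0.930% ± 0.0260 and 0.0756% ± 0.00549 (SD, n = 3) of the gene counts, and 8.49% ± 0.776 and 4.34% ± 1.27 of the reads lay outside genes. Reads that fitted more than 1 gene (5.38% to 5.49% and 4.87% to 4.98%) and reads not aligned (3.26% to 3.41% and 2.33% to 2.54%) did not overlap either. These shares cannot be told apart from genotype in this design. Xist, the RNA of the inactive X chromosome, was above 100 CPM (counts scaled to a library total of 1000000) in 2 of 3 controls and in 0 of 3 RARdn libraries. Control 2 was like the RARdn libraries in this. Summed acinar markers were at 28792, 102472 and 152439 CPM in RARdn 1, 2 and 3 against 92679 to 102697 CPM in controls. They were thus far below the controls in RARdn 1 and above them in RARdn 3. Alb, a liver gene, had 597 and 137 CPM in RARdn 1 and 2 against at most 3.19 CPM elsewhere. The allele has no row of its own in the tables, so the genotype was not checked. For the cell type, each of 9 genes listed for macrophages (Csf1r, Adgre1, Ptprc, Spi1, C1qa, C1qb, C1qc, Tyrobp and Fcer1g) had counts in every library. At this depth a count is a low bar and does not by itself show the cell type.

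Most myeloid genes lay higher in RARdn pancreas, by a modest amount, and few of the single differences passed the test. Of the 34 genes, 33 had enough counts to be tested, and 31 of these had a log2 fold change above 0, against 9543 of all 19070 genes tested. Their median log2 fold change was 0.65, against 0.00051 over all of these. Csf1r, Coro1a, Cx3cr1 and C3 rose at an adjusted p under 0.05, so 4 of 33 were called higher, and 0 were called lower, where 1.37% of all genes tested were called higher and 2.65% lower. A further 10 had an adjusted p between 0.05 and 0.1, and 21 of 33 had an unadjusted p under 0.05, against 22.2% of all genes. In 18 of 33 genes every RARdn library lay above every control, against 13.9% of all genes, and in 0 of 33 every RARdn library lay below, against 13.7%. Timd4 and Folr2 passed the filter on low counts through the RARdn libraries alone, and over the other 31 tested genes the median was 0.65, with 4 called and 16 that did not overlap.

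**Figure D1:**
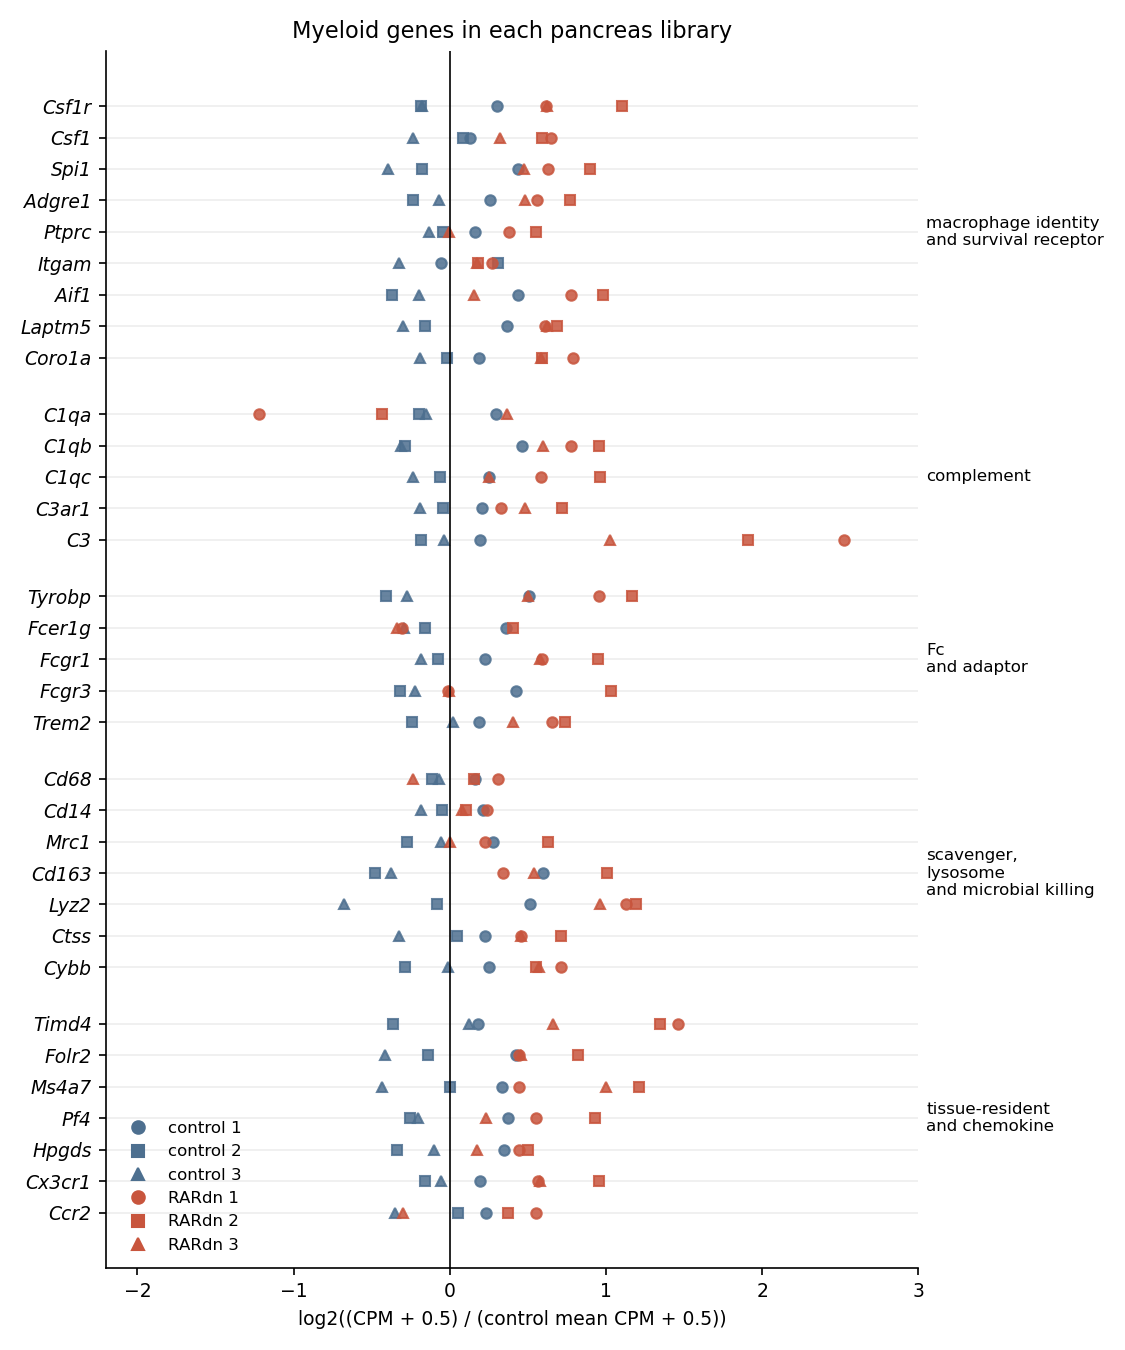
Each tested myeloid gene in each library, as log2 of its CPM plus 0.5 over the control mean plus 0.5, with genes grouped by role, blue for control and red for RARdn, and a circle, square or triangle for replicate 1, 2 or 3. RARdn 2 (red square) is the highest of the 6 libraries in 23 of 33 genes, and control 1 (blue circle) is the highest control in 32 of 33.

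The libraries were not alike within groups. The median over the 33 genes of the log2 ratio to the control mean was 0.26, -0.16 and -0.20 for the controls, in replicate order, and 0.56, 0.77 and 0.46 for the RARdn libraries. RARdn 2 lay above all controls in 29 genes, RARdn 1 in 27 and RARdn 3 in 19. Control 1 was thus the control nearest to the RARdn libraries, and Itgam was the 1 gene in which another control, control 2, was higher. In whole tissue, more cells of a type and more RNA per cell cannot be told apart.

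The number of calls depended on single libraries. Without control 2, control 3 or RARdn 2, edgeR called 0 of the 33 genes, with a median log2 fold change of 0.59, 0.57 and 0.56, and it called 0.148%, 0.141% and 0.111% of all genes tested higher. Without control 1 it called 5 (Csf1r, C1qb, Laptm5, Lyz2 and Tyrobp), against 0.636% of all genes, and without RARdn 1 it called 4 (C3, Csf1r, Cx3cr1 and Ms4a7), against 1.66%. Without RARdn 3, the library with the fewest counts, it called 12 of 33, against 6.98%. Other settings gave 16 called myeloid genes by DESeq2 (3.99% of all genes), 15 of 34 with no filter on low counts (3.31%) and 5 by limma-voom (1.42%). There were 5 with the replicate number as a block (1.68%) and 2 with library totals in place of TMM scaling (0.655%). There was 1 with at least 1 CPM in 3 libraries (0.51%) and 0 with a term for Xist (0.0262%). Xist was high in controls 1 and 3 alone, so with that term the group difference rested on control 2 against the RARdn libraries. Its result therefore cannot be read as an adjustment for sex.

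**Figure D2:**
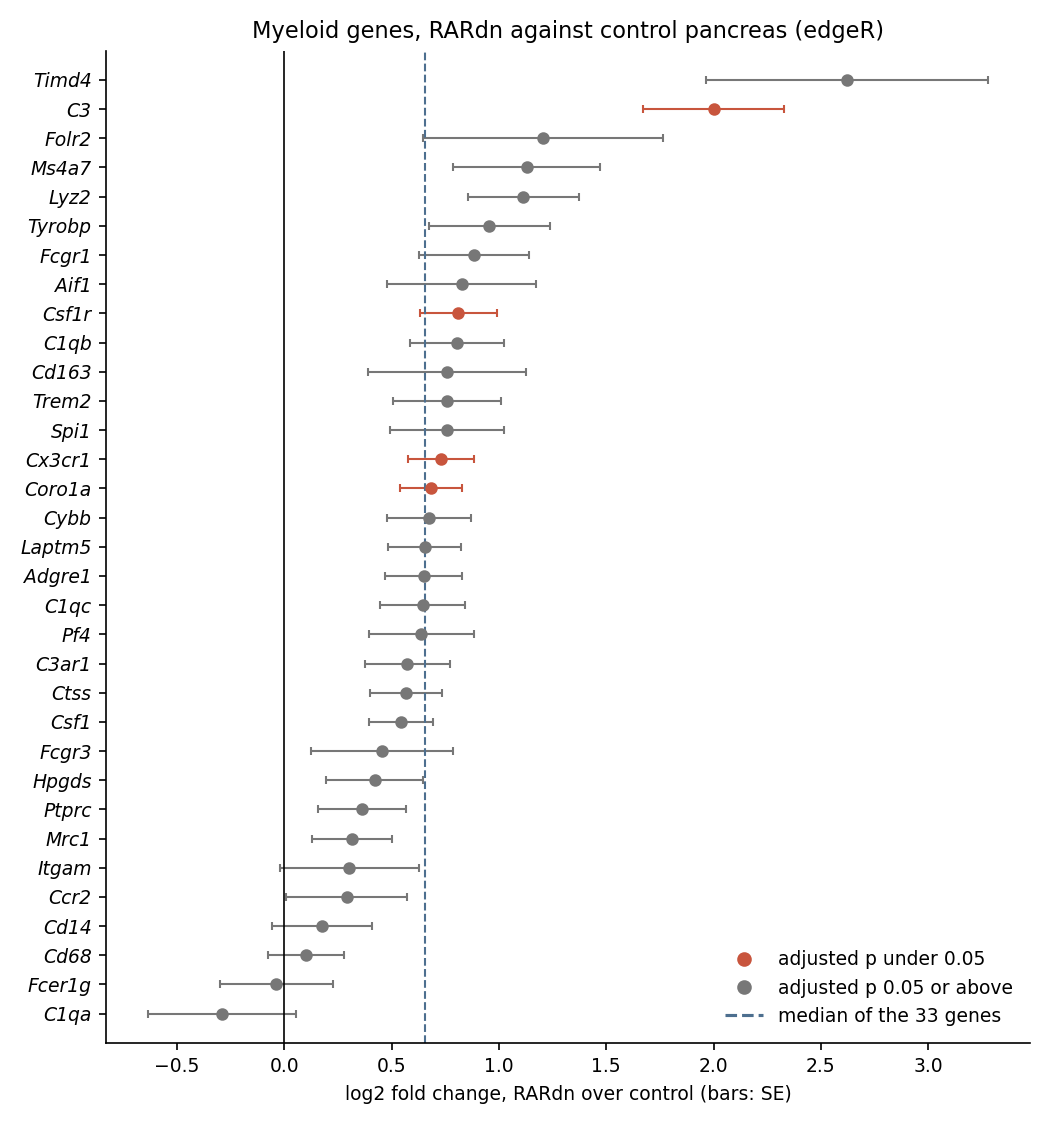
Log2 fold change of RARdn over control for each of the 33 tested myeloid genes, with bars for the standard error, red where the adjusted p was under 0.05, and a dashed line at their median of 0.65. Only C1qa and Fcer1g lie below 0, and C3 and Timd4 lie farthest above it.

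The receptor Csf1r, which macrophages need to survive, was at 38.0, 27.0 and 27.1 CPM in the controls, in replicate order here and below, and at 47.4, 66.7 and 47.6 CPM in the RARdn libraries. Every RARdn library lay above every control. The means were 30.7 ± 6.30 and 53.9 ± 11.1 CPM (SD, n = 3), a 1.75-fold difference with a log2 fold change of 0.81 (SE 0.18, adjusted p = 0.0454, edgeR). Csf1r lies on chromosome 18 from 61100598 to 61132149 (GRCm38), and 14.3% of its 50-base exon stretches also occur in Hmgxb3, which overlaps it on the other strand and had 6998 counts. The call was lost without control 2, control 3 or RARdn 2 (edgeR adjusted p = 0.180, 0.158 and 0.111). It was also lost with library totals (0.0539) and with at least 1 CPM in 3 libraries (0.0716). Over 15 alternatives the adjusted p ran from 0.00149 to 0.230, the highest with the term for Xist.

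Coro1a encodes coronin 1A, an actin regulator of leukocytes. It was at 11.3, 9.73 and 8.57 CPM in controls and at 17.4, 15.1 and 15.0 CPM in RARdn libraries. The groups stood apart, and the spread within each was small, at 9.86 ± 1.36 and 15.8 ± 1.34 CPM. The log2 fold change was 0.69 (SE 0.15, adjusted p = 0.0401, edgeR). Coro1a lies on chromosome 7 from 126699773 to 126707787, and an exon overlaps Bola2 on the other strand, which had 7153 counts. The call was lost without control 1, 2 or 3, RARdn 1 or RARdn 2 (edgeR adjusted p = 0.0532, 0.161, 0.139, 0.0538 and 0.0871). Library totals (0.146) and the filter of at least 1 CPM in 3 libraries (0.0627) also lost it. Over 15 alternatives the adjusted p ran from 0.00182 to 0.342, the highest with the term for Xist.

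The other 7 genes of this role, which holds the ligand gene Csf1 beside genes of macrophage identity, also had log2 fold changes above 0 but did not pass. Laptm5, a lysosomal membrane protein of blood cells, was at 27.0, 18.6 and 16.8 CPM in controls and at 32.1, 33.8 and 32.3 CPM in RARdn libraries (log2 0.65, adjusted p = 0.0722, edgeR). Csf1, the ligand of the receptor, was at 14.02, 13.6 and 10.8 CPM in controls and at 20.3, 19.5 and 16.1 CPM in RARdn libraries (log2 0.55, adjusted p = 0.0801, edgeR). Adgre1, which encodes the F4/80 antigen, was at 7.83, 5.41 and 6.14 CPM and then 9.76, 11.4 and 9.22 CPM (log2 0.65, adjusted p = 0.0823, edgeR). In each of these 3 genes the groups did not overlap, and the same held for Spi1, the PU.1 gene, whose controls were at 5.14, 3.19 and 2.66 CPM and whose RARdn libraries were at 5.95, 7.26 and 5.30 CPM. Laptm5 was called without control 1 (edgeR adjusted p = 0.0282, range 0.00700 to 0.307 over 15 alternatives), and Csf1 and Adgre1 were called without RARdn 3 (edgeR adjusted p = 0.0258 and 0.0429, ranges 0.0220 to 0.540 and 0.0182 to 0.291). The remaining 3 overlapped between groups. The pan-leukocyte phosphatase gene Ptprc, known as CD45, was at 4.70 ± 0.561 and 6.02 ± 1.25 CPM, and Aif1, which encodes the actin-binding protein IBA1, was at 1.88 ± 0.737 and 3.30 ± 1.05 CPM. The integrin gene Itgam, known as CD11b, was at 0.966 ± 0.325 and 1.19 ± 0.0621 CPM, but 66.3% of its exon stretches are shared with Gm49368, so its reads may be lost.

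PU.1 binds a purine-rich core, written GAGGAA on 1 strand or TTCCTC on the other. RefSeq windows on GRCm38.p6, from 250 bases before to 50 after each start, were matched for 28 of the 34 genes, with Adgre1, C1qa, Cd14, Spi1, Tyrobp and Csf1r unmatched. The core, read on both strands, occurred in the windows of 16 of these 28 genes (57.1%), against 31.3% of 27025 genes with a window. A match is a run of letters and not a shown binding site. Among the 16 were C1qb and Fcgr1. The 120 bases before the start of each are shown because both genes lay above all controls in every RARdn library, with the core in capitals. Laptm5, Ctss, Cybb, Trem2 and Ms4a7 also held the core and lay above all controls. The called genes Coro1a, Cx3cr1 and C3 had 0 matches to the core in their windows. The same held for Csf1, C3ar1, Lyz2, Timd4 and Folr2, whose groups did not overlap either. C1qb is at chr4:136886201-136886320 and Fcgr1 at chr3:96293970-96294089, both on the minus strand of GRCm38.p6.
C1qb: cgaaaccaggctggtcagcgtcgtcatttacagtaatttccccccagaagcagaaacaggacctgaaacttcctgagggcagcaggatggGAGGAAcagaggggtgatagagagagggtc
Fcgr1: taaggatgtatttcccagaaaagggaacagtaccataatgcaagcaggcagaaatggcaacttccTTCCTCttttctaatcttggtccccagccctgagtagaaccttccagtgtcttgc
In C1qb the core reads GAGGAA towards the gene, and in Fcgr1 it reads TTCCTC, the other strand. The AGGTCA motif that nuclear receptors, retinoic acid receptors included, can bind was found in 7 of the 28 genes (25.0%) and in 18.1% of all genes with a window. A direct repeat of it on 1 strand with 5 bases between was found in 0 of the 28 and in 3 genes of all (0.0111%), with both strands read. No match says only that these letters are not in these windows.

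Complement genes fell into 3 patterns. C1qb and C1qc, 2 of the 3 chains of C1q, lay higher in RARdn pancreas much as Csf1r did. C1qb was at 21.6, 12.7 and 12.5 CPM in controls and at 27.0, 30.7 and 23.8 CPM in RARdn libraries, with no overlap (log2 0.80, SE 0.22, adjusted p = 0.0793, edgeR). C1qc was at 22.4, 17.9 and 15.8 CPM and at 28.3, 36.9 and 22.3 CPM (log2 0.64, SE 0.20, adjusted p = 0.105, edgeR), where RARdn 3 lay just under control 1. C1qb was called without control 1 and without RARdn 3 (edgeR adjusted p = 0.0282 and 0.0429, range 0.00483 to 0.259 over 15 alternatives), and C1qc without RARdn 3 (0.0251, range 0.0136 to 0.458). C3ar1, the receptor for the C3a fragment, was at 4.70, 3.88 and 3.45 CPM in controls and at 5.16, 6.92 and 5.79 CPM in RARdn libraries, without overlap (adjusted p = 0.139, edgeR).

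C1qa did not follow its neighbours. The 3 chains are encoded side by side on chromosome 4, C1qb from 136880129 to 136886187, C1qc from 136889804 to 136893065 and C1qa from 136895917 to 136898803 (GRCm38). C1qa was at 317, 225 and 232 CPM in controls and at 110, 191 and 333 CPM in the RARdn libraries (log2 -0.29, SE 0.35, adjusted p = 0.667, edgeR). The RARdn libraries therefore spread to both sides of the controls. Without RARdn 1 the log2 fold change was 0.05. Per kilobase of exon, the mean level of C1qa was 248 CPM in controls and 203 CPM in RARdn libraries, against 14.3 and 25.0 CPM for C1qb and 9.68 and 15.1 CPM for C1qc. There were 14.7, 17.8 and 18.6 C1qa counts per C1qb count in controls, and 4.09, 6.20 and 13.98 in RARdn 1, 2 and 3. None of its 50-base exon stretches occurs in another annotated gene.

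The acinar enzyme gene Cpa1 took the same order as C1qa among the RARdn libraries, though not among the controls. It was at 14505, 14428 and 16071 CPM in controls and at 4660, 11814 and 20443 CPM in RARdn 1, 2 and 3. There were 2.18, 1.56 and 1.44 C1qa counts per 100 Cpa1 counts in controls and 2.37, 1.61 and 1.63 in RARdn libraries, which overlapped. The part of acinar RNA in the C1qa counts was not tested. C1qa alone made up 46.5%, 46.5% and 48.3% of the summed CPM of the 34 genes in controls and 18.6%, 25.8% and 45.4% in RARdn libraries. The sum over all 34 genes was 549 ± 115 CPM in controls and 688 ± 81.7 CPM in RARdn libraries, a 1.25-fold difference. These sums overlapped, with control 1 at 681 CPM and RARdn 1 at 594 CPM. With C1qa and C3 left out, the sum was 281 ± 62.7 CPM in controls and 438 ± 66.4 CPM in RARdn libraries, a 1.56-fold difference without overlap.

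**Figure D3:**
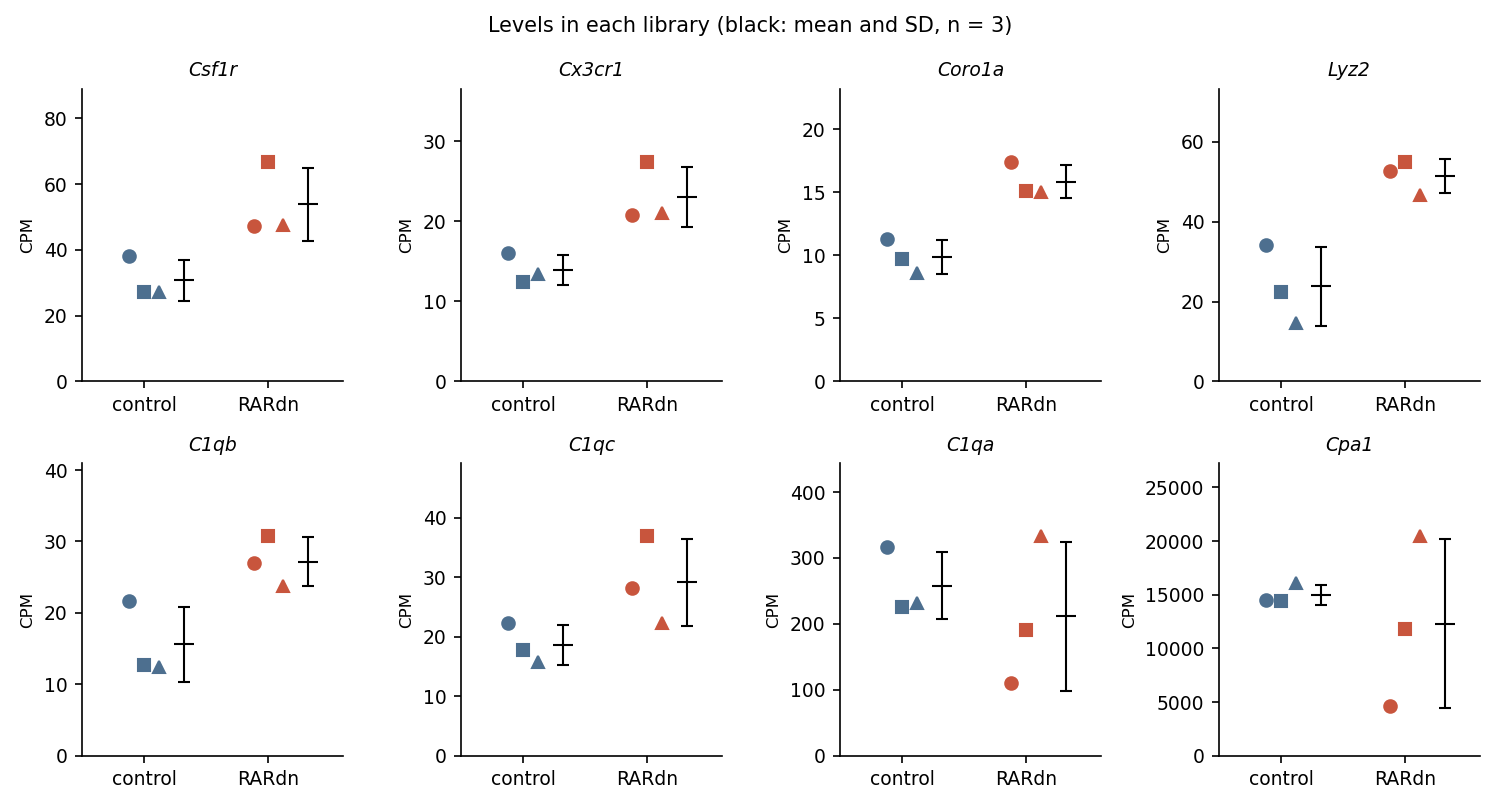
CPM in each library for 7 myeloid genes and the acinar gene Cpa1, with a circle, square or triangle for replicate 1, 2 or 3 and a black bar for the mean and SD of 3 libraries. Csf1r, Cx3cr1, Coro1a, Lyz2 and C1qb do not overlap between groups, while in RARdn libraries C1qa runs from 110 to 333 CPM in the same order as Cpa1, from 4660 to 20443 CPM.

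C3, the central component of the complement cascade, rose the most of the 4 called genes. It was at 11.1, 8.49 and 9.45 CPM in controls and at 58.0, 37.8 and 20.3 CPM in the RARdn libraries. The controls lay close together and the RARdn libraries did not, with means of 9.69 ± 1.35 and 38.7 ± 18.9 CPM. The log2 fold change was 2.002 (SE 0.33, adjusted p = 0.0173, edgeR), a 3.99-fold difference. C3 is made by many cells, hepatocytes above all, and the albumin gene Alb, a liver marker, stood at 597, 137 and 3.19 CPM in the same 3 libraries. C3 thus followed the order of Alb, and the part of liver RNA in the C3 counts was not tested. Without RARdn 1 the log2 fold change was 1.61 (edgeR adjusted p = 0.0150), with RARdn 2 and its 137 CPM of Alb still in the fit. The call was lost without control 1, 2 or 3 or RARdn 2 (edgeR adjusted p = 0.0520, 0.0703, 0.0604 and 0.0652) or with a term for Xist (0.160), the highest of 15 alternatives. C3 lies on chromosome 17 from 57203970 to 57228136. The 250 bases before its start, chr17:57228137-57228386 on the minus strand (RefSeq, GRCm38.p6), are shown with the AGGTCA motif in capitals, since C3 was 1 of the 7 genes that held it and the only called gene among them.
C3: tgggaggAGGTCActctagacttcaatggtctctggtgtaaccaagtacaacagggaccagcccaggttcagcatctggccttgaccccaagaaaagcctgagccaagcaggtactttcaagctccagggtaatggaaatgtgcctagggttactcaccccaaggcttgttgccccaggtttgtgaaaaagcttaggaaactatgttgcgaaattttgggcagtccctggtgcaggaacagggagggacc

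Fc receptors and their signalling adaptors gave no call. By edgeR 0 of 5 were called, while DESeq2 called 2 and limma-voom 0, against 1.37%, 3.99% and 1.42% of all genes called higher. An unadjusted p under 0.05 was found in 3, against 22.2% of all genes. Tyrobp, which encodes the adaptor DAP12, was at 9.55, 4.83 and 5.35 CPM in controls and at 13.2, 15.4 and 9.51 CPM in RARdn libraries (log2 0.96, SE 0.28, adjusted p = 0.0964, edgeR). RARdn 3 lay just under control 1. Trem2, a lipid-sensing receptor that signals through DAP12, was at 1.59 ± 0.306 and 2.68 ± 0.366 CPM (adjusted p = 0.129, edgeR), with no overlap. Fcer1g, which encodes the other adaptor, the common gamma chain of Fc receptors, was at 10.6, 7.24 and 6.55 CPM in controls and at 6.48, 10.9 and 6.32 CPM in RARdn libraries (log2 -0.04, SE 0.27, adjusted p = 0.951, edgeR).

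The 2 adaptors thus differed in their ratio. There were 0.904, 0.668 and 0.816 Tyrobp counts per Fcer1g count in controls and 2.04, 1.41 and 1.51 in RARdn libraries, with no overlap. Fcer1g is also part of the IgE receptor of mast cells. Summed mast cell markers were at 107, 85.3 and 81.1 CPM in controls and at 65.9, 108 and 113 CPM in RARdn 1, 2 and 3. RARdn 3, with the highest sum of the 6 libraries, had the lowest Fcer1g, at 6.32 CPM. The part of mast cells in the ratio was not tested. Fcgr1, the high-affinity IgG receptor, was at 1.98, 1.51 and 1.37 CPM in controls and at 2.70, 3.59 and 2.67 CPM in RARdn libraries, without overlap (log2 0.88, adjusted p = 0.0911, edgeR). Fcgr3, a low-affinity receptor, overlapped, with 16.8 CPM in RARdn 2 and 7.93 and 7.97 CPM in RARdn 1 and 3 against 6.33 to 10.9 CPM in controls. Without RARdn 2 its log2 fold change went from 0.45 to -0.0020, and 9.58% of its exon stretches are shared with Fcgr2b. Without RARdn 3 Tyrobp and Fcgr1 were called (edgeR adjusted p = 0.0356 and 0.0491), as was Tyrobp without control 1 (0.0460). Over 15 alternatives the adjusted p of Tyrobp ran from 0.00834 to 0.294 and that of Fcgr1 from 0.0245 to 0.463.

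Among genes of scavenging, the lysosome and microbial killing, Lyz2 differed most. Lyz2 encodes the lysozyme of macrophages and neutrophils and lies on chromosome 10 from 117277331 to 117282321. It was at 34.3, 22.5 and 14.7 CPM in controls and at 52.7, 54.9 and 46.8 CPM in RARdn libraries. The groups stood apart, with means of 23.8 ± 9.86 and 51.5 ± 4.22 CPM, a 2.16-fold difference. The log2 fold change was 1.11 (SE 0.26) and missed the threshold (adjusted p = 0.0510, edgeR). It passed in 9 of 15 alternatives, among them without control 1 and without RARdn 3 (edgeR adjusted p = 0.0264 and 0.0334), with a range of 0.000641 to 0.328. Summed neutrophil markers were at 20.2, 19.0 and 8.52 CPM in controls and at 94.5, 26.4 and 22.0 CPM in the RARdn libraries. Their part in Lyz2 was not tested.

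Lyz1, the lysozyme of Paneth cells and some macrophages, is the adjacent copy and had 20 counts in all, too few to test, at 0 to 0.0926 CPM in controls and 0.0658 to 0.120 CPM in RARdn libraries. Of the exon stretches of 50 bases, 15.4% of Lyz2 and 16.1% of Lyz1 occur in both genes. A promoter stretch that lies from 120 to 50 bases before each start is shown, with the differing bases in capitals, because the pair differ so much in level. Over 71 bases, 62 are the same and 9 differ (87.3% identity). Lyz2 is at chr10:117282322-117282392 and Lyz1 at chr10:117292918-117292988, both on the minus strand (RefSeq, GRCm38.p6).
Lyz2: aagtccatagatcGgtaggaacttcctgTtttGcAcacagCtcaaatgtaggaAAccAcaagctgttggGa
Lyz1: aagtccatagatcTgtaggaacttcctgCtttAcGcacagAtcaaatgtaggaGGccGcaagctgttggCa
No peak or binding data bear on these stretches here.

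By edgeR 0 of the 7 tested genes of this role were called, while DESeq2 called 3 and limma-voom 1. Of all genes, 1.37%, 3.99% and 1.42% were called higher by these tools. An unadjusted p under 0.05 was found in 3, against 22.2% of all genes. Ctss, a lysosomal cysteine protease of antigen-presenting cells, was at 13.4, 11.7 and 8.96 CPM in controls and at 15.7, 18.9 and 15.7 CPM in RARdn libraries (log2 0.57, adjusted p = 0.0976, edgeR). Cybb, the catalytic subunit of the phagocyte NADPH oxidase on the X chromosome, was at 5.01, 3.30 and 4.10 CPM and at 7.09, 6.29 and 6.39 CPM (adjusted p = 0.0922, edgeR). Neither overlapped between groups. Mrc1, the mannose receptor, was at 47.6, 32.3 and 37.8 CPM in controls and at 46.0, 60.9 and 39.3 CPM in RARdn libraries (log2 0.31, SE 0.19, adjusted p = 0.359, edgeR). Cd163, the haemoglobin scavenger receptor, was at 2.68 ± 1.41 and 4.51 ± 1.24 CPM in the groups (log2 0.76, SE 0.37, adjusted p = 0.266, edgeR). Cd68, a lysosomal glycoprotein, was at 10.1 ± 1.11 and 10.8 ± 2.10 CPM. Cd14, the co-receptor for bacterial lipopolysaccharide, was at 2.10 ± 0.370 and 2.36 ± 0.176 CPM. All 4 overlapped between groups, and their adjusted p ran up to 0.779 for Cd68 (log2 0.10, SE 0.18, edgeR).

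Cx3cr1, the receptor for fractalkine and a mark of embryonic macrophage precursors, was the called gene among those of tissue residence and chemokine response. It was at 16.0, 12.4 and 13.4 CPM in controls and at 20.8, 27.4 and 21.0 CPM in RARdn libraries. All RARdn libraries lay above all controls, with means of 13.9 ± 1.86 and 23.1 ± 3.75 CPM. The log2 fold change was 0.73 (SE 0.15, adjusted p = 0.0401, edgeR). Cx3cr1 lies on chromosome 9 from 119901616 to 120069879, where an exon overlaps Gm33858, which had 12 counts. The call was lost without control 1, 2 or 3 or RARdn 2 (edgeR adjusted p = 0.0558, 0.166, 0.137 and 0.0995), with a range of 0.00159 to 0.213 over 15 alternatives. It was also lost with library totals, with at least 1 CPM in 3 libraries, with the replicate number as a block and with the term for Xist. Ccr2, the chemokine receptor that marks monocytes leaving the blood, was at 4.75, 4.14 and 3.01 CPM in controls and at 6.05, 5.29 and 3.13 CPM in RARdn libraries, which overlapped (log2 0.29, SE 0.28, adjusted p = 0.586, edgeR).

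Timd4, a phosphatidylserine receptor of long-lived resident macrophages, had the largest log2 fold change of the 33 genes, 2.62 (SE 0.66, adjusted p = 0.0634, edgeR). Its levels were low, at 0.261, 0.0223 and 0.232 CPM in controls and at 1.35, 1.20 and 0.560 CPM in RARdn libraries, from 178 counts in all. The groups did not overlap. It was called without RARdn 3 (log2 2.91, edgeR adjusted p = 0.0272, range 0.00319 to 0.158 over 14 alternatives). Folr2, a folate receptor of resident macrophages, was at 0.320 ± 0.251 and 0.729 ± 0.189 CPM from 142 counts, but 52.6% of its exon stretches are shared with Gm10602 on the other strand, which had 356 counts. Ms4a7, a membrane protein of mature macrophages, was at 2.01, 1.49 and 0.972 CPM in controls and at 2.21, 4.10 and 3.49 CPM in RARdn libraries (log2 1.13, adjusted p = 0.101, edgeR). It did not overlap, and it was called without RARdn 1 (edgeR adjusted p = 0.0490, range 0.0204 to 0.514). Pf4, a chemokine of platelets and some fetal macrophages, was at 6.78 ± 1.87 and 10.5 ± 2.65 CPM and overlapped. Platelet markers were at 5.79 to 8.77 CPM in controls and 5.07 to 7.88 CPM in RARdn libraries when summed, which overlapped as well. Hpgds, a prostaglandin D synthase, was at 4.60 ± 1.27 and 6.15 ± 0.775 CPM and also overlapped.

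Ratios within a library show which genes kept pace with Csf1r, and they were described without a test. C1qb stood at 0.499 ± 0.0607 counts per Csf1r count in controls and 0.510 ± 0.0552 in RARdn libraries, and C1qc at 0.611 ± 0.0429 and 0.540 ± 0.0645. Cd163 was at 0.0836 ± 0.0259 and 0.0831 ± 0.00765 counts per Csf1r count. These 3 ratios overlapped between groups, as did those of Lyz2 (0.758 ± 0.191 and 0.973 ± 0.145), Csf1 (0.423 ± 0.0699 and 0.353 ± 0.0691) and Ccr2 (0.130 ± 0.0215 and 0.0909 ± 0.0326). Mrc1 stood apart, at 1.25, 1.20 and 1.39 counts per Csf1r count in controls and 0.970, 0.914 and 0.826 in RARdn libraries. Its own level overlapped between groups, while that of Csf1r did not. Timd4 and C3 had higher ratios in every RARdn library than in any control, with C3 at 0.293 to 0.348 in controls and at 1.22, 0.566 and 0.426 in RARdn 1, 2 and 3. C1qa was at 8.34, 8.33 and 8.56 counts per Csf1r count in controls and 2.33, 2.86 and 6.99 in RARdn libraries.

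**Figure D4:**
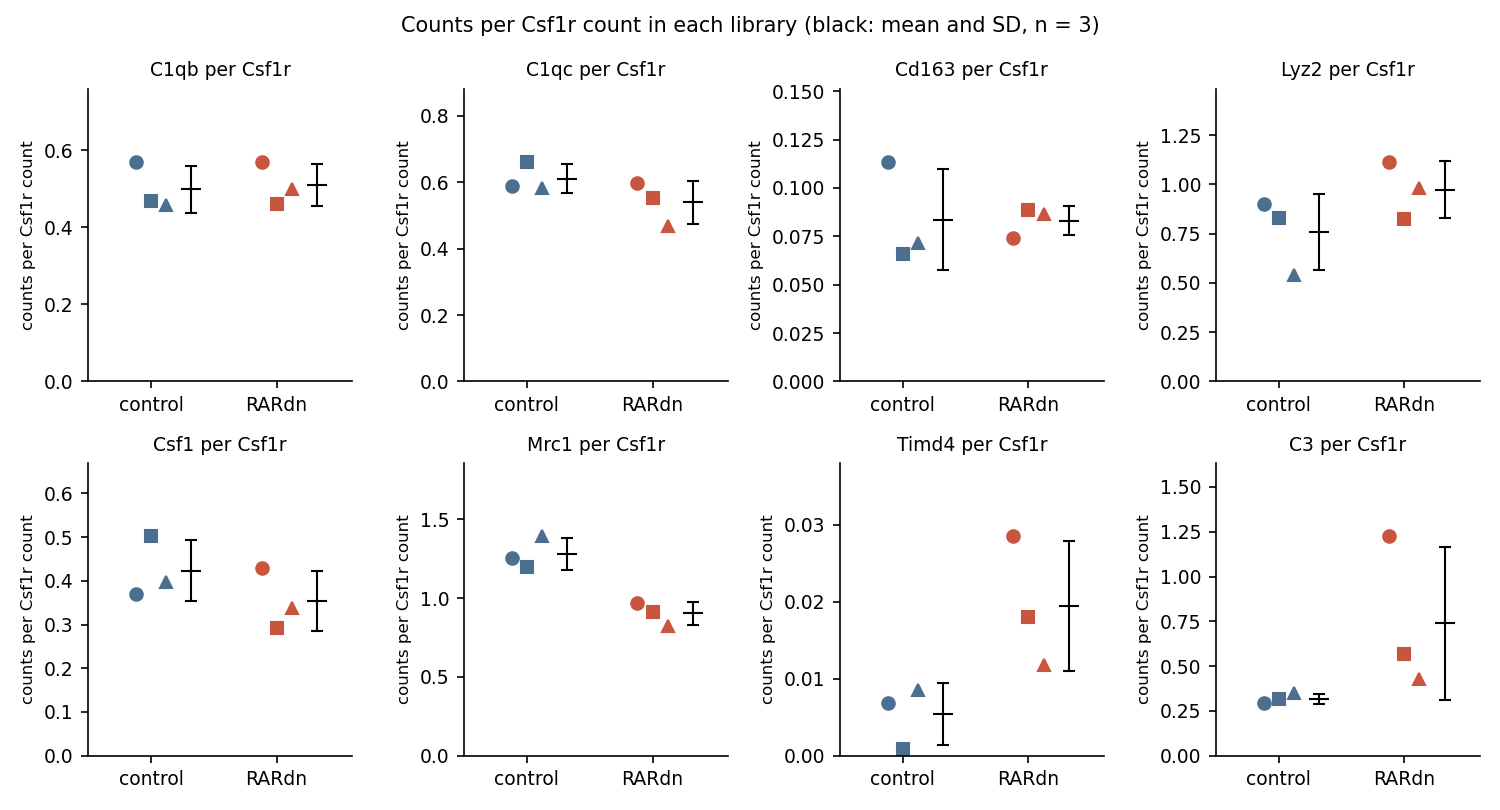
Counts of 8 myeloid genes per Csf1r count in each library, on axes that start at 0, with a circle, square or triangle for replicate 1, 2 or 3 and a black bar for the mean and SD of 3 libraries. C1qb, C1qc, Cd163, Lyz2 and Csf1 overlap between groups, Mrc1 lies lower in RARdn libraries, and Timd4 and C3 lie higher.

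Set against other cells of the tissue, Csf1r kept pace with some markers and not with others. There were 25.6, 21.6 and 22.5 Csf1r counts per 100 counts of the endothelial gene Pecam1 in controls and 37.8, 48.8 and 35.1 in RARdn libraries, with no overlap. Per 100 counts of the collagen gene Col3a1 there were 1.56, 1.48 and 1.30 in controls and 1.62, 1.94 and 1.52 in RARdn libraries, which overlapped. Summed mesenchyme markers were at 6629, 4829 and 5548 CPM in controls and at 8113, 9197 and 8541 CPM in RARdn libraries. All 9 genes of that list had a log2 fold change above 0, with a median of 0.57. In 6 every RARdn library lay above every control, against 13.9% of all genes, and 7 had an unadjusted p under 0.05, against 22.2%. DESeq2 called 6 and limma-voom 2, against 3.99% and 1.42% of all genes called higher. By edgeR 1 of 9 was called, against 1.37%. It was Lum, a proteoglycan of fibroblasts, at 61.8, 47.0 and 47.6 CPM in controls and at 109, 126 and 93.8 CPM in RARdn libraries (log2 1.07, SE 0.15, adjusted p = 0.0128, edgeR). Lum was not called without control 2 (edgeR adjusted p = 0.0587, range up to 0.0950 over 15 alternatives). Per 100 Lum counts, Csf1r was lower in every RARdn library than in any control, at 61.5, 57.6 and 57.0 against 43.3, 52.9 and 50.8. The part of mesenchyme in the myeloid differences was not tested.

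Of 45 other macrophage genes, 43 were tested, 2 rose and 0 fell, where 1.37% of all genes tested were called higher. The log2 fold change was above 0 in 41, with a median of 0.60. In 21 of the 43 the RARdn libraries lay above all controls, against 13.9% of all genes. Marco, a scavenger receptor for bacteria and particles, was at 0.104, 0.0446 and 0.0463 CPM in controls and at 1.64, 0.888 and 0.296 CPM in the RARdn libraries (log2 3.86, SE 0.73, adjusted p = 0.0279, edgeR). All its controls lay below the 0.225 CPM of the filter on low counts. Marco, like Timd4 and Folr2, was thus tested only through the group in which it was high, and its call adds no support. The counts and the median given above for this list still include Marco. Whether other genes of the list passed the filter in the same way was not checked, so these figures may lean towards higher genes. Ikzf1, a transcription factor of blood cells, was at 2.51, 2.56 and 1.69 CPM and at 5.35, 4.44 and 4.28 CPM (log2 1.06, SE 0.23, adjusted p = 0.0432, edgeR). Marco is strongly expressed by marginal zone macrophages of the spleen, and summed spleen mesenchyme markers were at 115 to 139 CPM in controls and 106 to 126 CPM in RARdn libraries. Among the RARdn libraries, Marco and Timd4 took the order of the liver gene Alb, highest in RARdn 1 and lowest in RARdn 3. The part of spleen or liver RNA in their counts was not tested. The calls of Marco and Ikzf1 were lost without control 1, 2 or 3 or RARdn 2, and that of Ikzf1 also without RARdn 1. The edgeR adjusted p was 0.0624, 0.125, 0.104 and 0.0760 for Marco and 0.0845, 0.132, 0.141 and 0.0964 for Ikzf1, with 0.0590 without RARdn 1. Over the alternatives they ran up to 0.266 and 0.451.

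Among 21 further cytokine and chemokine genes, 15 were tested and 1 rose, against 1.37% of all genes called higher. Cxcl12, a chemokine of stromal cells, was at 135, 127 and 111 CPM in controls and at 234, 223 and 169 CPM in RARdn libraries (log2 0.75, SE 0.15, adjusted p = 0.0342, edgeR). The call was lost without control 1, 2 or 3 or RARdn 2 (edgeR adjusted p = 0.0714, 0.147, 0.139 and 0.0955, range up to 0.353). Tgfb1, a growth factor that macrophages both make and sense, was at 18.0 ± 2.16 and 25.8 ± 2.99 CPM. Csf2 and Il10 had 0 counts in all 6 libraries, which allows up to 0.0114 CPM (3 counts over the 6 libraries, counting error only). Of 20 other complement genes 16 were tested, and edgeR called 0, while DESeq2 called 6 and limma-voom 0. DESeq2 called 3.99% of all genes higher and limma-voom 1.42%. An unadjusted p under 0.05 was found in 8 of the 16, against 22.2% of all genes. Their median log2 fold change was 0.62. The most abundant, Clu, a chaperone that also binds the terminal complement complex, was at 1427, 1518 and 1499.7 CPM in controls and at 729, 1241 and 2254 CPM in the RARdn libraries, the order that C1qa and Cpa1 took in them.

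Markers of other blood cells were read beside the myeloid genes, with the same shares over all genes. These were 1.37% called higher by edgeR, 3.99% by DESeq2 and 1.42% by limma-voom, and 22.2% with an unadjusted p under 0.05. Cd74, the class II invariant chain of antigen-presenting cells, rose, at 5.64, 3.65 and 3.73 CPM in controls and at 8.91, 11.9 and 10.3 CPM in RARdn libraries (log2 1.26, SE 0.21, adjusted p = 0.0190, edgeR). It was the 1 called gene of 8 tested dendritic cell markers, whose median log2 fold change was 0.15, and its call was lost without control 2, control 3 or RARdn 2 (edgeR adjusted p = 0.0812, 0.0685 and 0.0732, range up to 0.134). Of 8 tested monocyte markers edgeR called 0, DESeq2 1 and limma-voom 0, 2 had an unadjusted p under 0.05, and the median was 0.33. Of 7 tested lymphoid markers edgeR called 0, DESeq2 1 and limma-voom 1, and 2 had an unadjusted p under 0.05. Of 11 tested neutrophil markers edgeR called 0, DESeq2 2 and limma-voom 0, and 7 had an unadjusted p under 0.05. S100a8 and S100a9 of this list were highest in RARdn 1, at 26.3 and 25.5 CPM. In RARdn 2 and 3 they were at 5.99 to 7.24 and 4.90 to 7.46 CPM. Endothelial markers summed to 470 to 562 CPM in controls and 500 to 535 CPM in RARdn libraries, which overlapped.

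**Figure D5:**
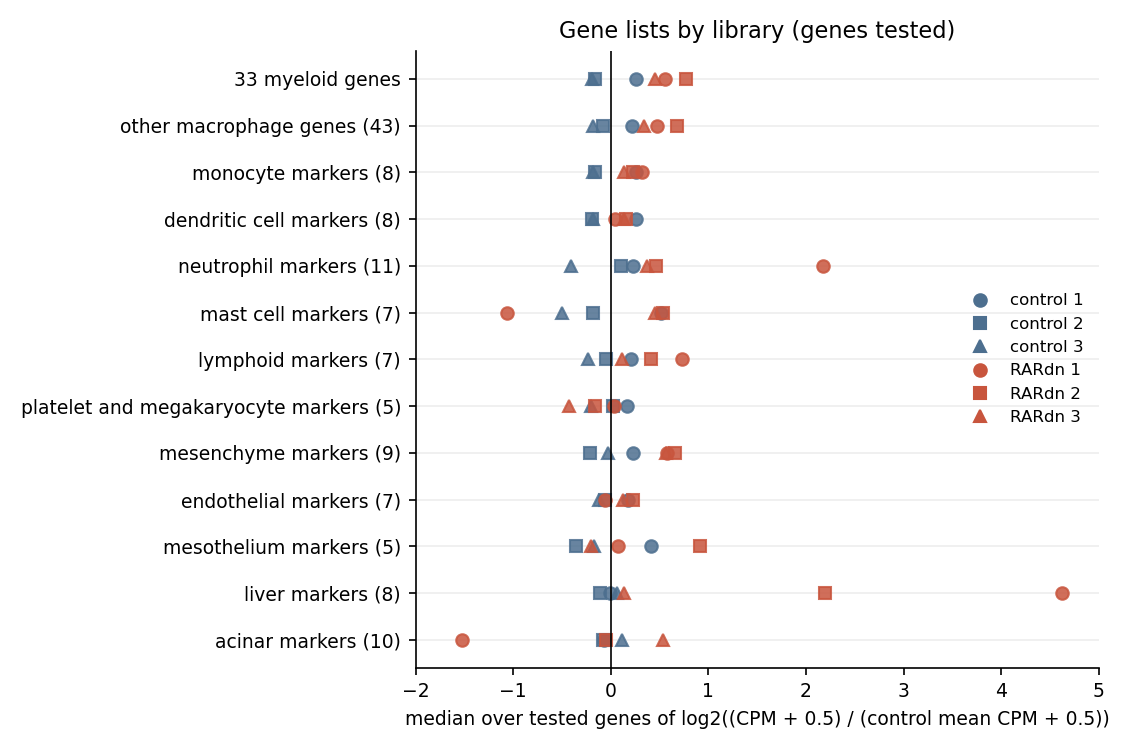
Median over the tested genes of each list of log2 CPM plus 0.5 over the control mean plus 0.5, for the 33 myeloid genes and 12 other lists, in each library (number of tested genes in brackets; blue control, red RARdn; circle, square, triangle for replicate 1, 2, 3). The medians of all RARdn libraries lie above those of all controls for the myeloid genes and for the other macrophage, mesenchyme, neutrophil and liver lists, with RARdn 1 and then RARdn 2 far above the controls in the liver list.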

How the data were processed

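The authors deposited 1 table of raw counts for each sample, with 54735 gene symbols and the 5 summary lines of HTSeq. The summary lines were left out of library sizes and tests. Tools named per the submitters' processing notes are HISAT2, HTSeq, cutadapt, FastQC, DESeq2 and bedtools, with mm10 and GRCm38. The sources used here give no versions, annotation or strand setting. Without a known strand setting, reads of genes that overlap on opposite strands cannot be told apart. Positions, exon lengths and overlaps came from GENCODE M21 (54183 symbols matched).

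The deposited counts went into edgeR 4.0.16 (R 4.3.3): filterByExpr (0.225 CPM, or 10 counts in a library of median size, in 3 libraries), TMM scaling, and the 2-sided quasi-likelihood test on group alone. Benjamini-Hochberg adjustment ran over 19070 genes, and a gene was called under 0.05. Adjusted p-values in the text are edgeR's unless another tool is named. CPM are of the TMM-scaled library; each SE is the size of the log2 fold change divided by the root of F. The labels do not say whether samples were separate litters, and they leave unexplained a number that opens the descriptions of RARdn 2 and 3 and differs for RARdn 1, so the p-values rest on a spread between samples that may be technical. The test was also run on simulated counts with known changes. Those counts held no technical difference between groups, so they do not check the calls made here. Alternatives were RLE scaling, library totals, other filters, DESeq2 1.42.0, limma-voom (limma 3.58.1), leaving out the 50 most abundant genes or each library, an Xist term and the replicate number as a block.

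The 34 genes, and all lists, were chosen with earlier results of these data known. All 34 are named; of each other list, up to 4 called genes in order of p are named, filled up to 2 with the most abundant. Pecam1 and Col3a1 also serve as denominators of ratios. Genes of these lists named outside this rule (Csf2 and Il10) were chosen after their values were seen.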

Additional observations from a re-analysis of the deposited data

How the results depend on the processing

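The 33 tested genes kept a median log2 fold change above 0 in every setting run, between 0.56 and 0.83 without 1 library and at 0.90 with an Xist term. Genes called over the whole table were 767 and myeloid genes called 4. They were 474 and 2 with library totals, 2346 and 15 (of 34) with no filter, 217 and 1 with at least 1 CPM in 3 libraries, 2245 and 16 with DESeq2, and 61 and 0 with the Xist term. Without 1 library they ran from 100 to 2980 and from 0 to 12. Over the tested genes, deviations of log2 CPM from the group means correlated at 0.0244, -0.0756 and 0.195 between same-numbered samples. From so few libraries per group, low values cannot show whether the numbers pair samples. With the replicate number as a block 817 genes and 5 myeloid genes were called. C1qb and Lyz2 were now among them and Cx3cr1 was not (edgeR adjusted p = 0.0506). With the Xist term, where control 2 alone stood against the RARdn libraries, signs changed for Itgam (-0.14) and Fcer1g (0.13). Leaving out 1 library moved the log2 fold change of Fcer1g between -0.34 and 0.20, of C1qa between -0.77 and 0.055, of Fcgr3 between -0.0020 and 0.74 and of Cd68 between -4.8e-05 and 0.25. Of the settings that left out 1 library, 163 single-gene values kept direction and side of the threshold, 13 became called, 16 lost a call and 6 changed sign; of the others, 253, 29, 11 and 2 did. The cause was not tested. Fold changes of Timd4, Folr2 and Itgam rest on few counts.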

Other observations

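Mast cell genes set 1 library apart. Of 7 tested, edgeR, DESeq2 and limma-voom each called 0, and 0 reached an unadjusted p under 0.05 in edgeR, against 22.2% of all genes. Cpa3, the mast cell carboxypeptidase, was at 15.6, 8.33 and 6.85 CPM in controls and at 4.63, 15.1 and 14.2 CPM in RARdn 1, 2 and 3, and the receptor gene Kit was at 54.3, 56.6 and 57.7 CPM and at 52.3, 50.7 and 60.1 CPM. The same library, RARdn 1, had the most S100a8, at 26.3 CPM, and the most Alb, at 597 CPM.

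Red cell markers did not separate the groups, with summed levels of 3885 to 5467 CPM in controls and 3169 to 5539.7 CPM in RARdn libraries. Of 8 tested, edgeR, DESeq2 and limma-voom each called 0, and 1 reached an unadjusted p under 0.05 in edgeR, against 22.2% of all genes. Ins2, the insulin gene of the same dissections, was the 1 gene called lower among 10 endocrine markers, at 1388, 1179.7 and 1049 CPM in controls and at 776, 636 and 594 CPM in RARdn libraries (log2 -0.85, adjusted p = 0.0431, edgeR). It was called in 7 of 15 alternatives, and the call was lost without control 1, 2 or 3 or RARdn 2 (edgeR adjusted p = 0.114, 0.163, 0.0930 and 0.113, range up to 0.364).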
